A study of Mus musculus with 6 samples.

Results

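The genes described here are p53 and the genes under its control, a list of 30 mouse genes taken by name, compared between AC29 and AB1, which are both malignant mesothelioma cell lines. Of the 30 genes, 27 had at least 1 probe set with a single gene symbol in the platform's annotation, out of 18193 genes on the array that did. Trp53, which encodes p53 itself, Bax and Gdf15 had none there and were not analysed here. This tumour arises from the mesothelium, the cell layer that lines the pleura and peritoneum. AB1 is a BALB/c line sampled at passage 40 and AC29 a CBA line sampled at passage 60, both labelled female with an age of 6 to 8 weeks. Each line was grown untreated in 3 flasks to 80% confluency in medium with foetal calf serum, and the RNA of each flask went onto 1 Affymetrix array. Each group is thus 1 line, so that line, strain, passage and any processing batch cannot be told apart, and the p-values rest on the spread among flasks.

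The p53 protein is a transcription factor that is held at a low level by the ubiquitin ligase Mdm2 and accumulates after DNA damage and other stress. It then switches on genes that halt the cell cycle, repair DNA or start apoptosis. It also switches on Mdm2, which closes a feedback loop. The Mdm2 relative Mdm4 binds p53 and holds back its activity, and the phosphatase encoded by Ppm1d removes phosphates from p53 and from the kinases that activate it.

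The first principal component over all genes carried 93.1% of the variance and set AC29 apart from AB1. AC29 replicate 14 stood apart from the other AC29 arrays on the second, which carried 2.86%. Leaving that array out gave 11 listed genes called higher in AB1 and 1 higher in AC29, the same 12 genes as with it. Of 10 mesothelial marker genes, 8 passed the call rule below on the AC29 side, where 5.12% of all genes did. In AC29 all 10 exceeded the background floor, and in AB1 4 did. The summed log2 level of these markers ran from 109.5 to 111.5 on the AC29 arrays and from 63.3 to 63.7 on the AB1 arrays. In AC29 Wt1, a transcription factor of mesothelium, read 9.59 ± 0.10 (SD, n = 3), against 4.77 ± 0.23 in AB1. The mesothelin gene Msln was bright in AC29 (10.41 ± 0.23) and in AB1 (9.67 ± 0.10). Of 10 leukocyte markers, 4 exceeded the background floor in each line, with summed levels of 53.26 to 54.14 in AB1 and 53.01 to 54.07 in AC29. Ptprc, Itgam and Adgre1, which define leukocytes and macrophages, lay below it in both. Cd3e, Csf1r and Cd8a exceeded it in both lines, Cd68 in AB1 only and Lyz2 in AC29 only. Of 6 endothelial markers, only Kdr exceeded the floor, with summed levels of 29.12 to 29.36 in AB1 and 28.21 to 28.77 in AC29. Of 6 fibroblast markers, 3 did in each line, with summed levels of 43.56 to 44.4 in AB1 and 42.12 to 44.02 in AC29. Of these 6 markers, 1 was called higher in AB1 and 2 in AC29, against 5.82% and 5.12% of all genes. The part of these markers in the results below was not tested.

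Many genes that p53 is known to activate were lower in AC29 than in AB1. Pmaip1, Eda2r, Ccng1, Zmat3, Gadd45a, Bbc3, Trp53inp1, Cdkn1a, Mdm2, Aen and Polk were higher in AB1, and Ddit4l was higher in AC29. A gene was called where limma's adjusted p was under 0.05 and the log2 difference, AC29 minus AB1, was at least 1 in size, which is a 2-fold difference. The rule was passed by 10.9% of all genes. By this rule 11 of 27 listed genes were higher in AB1, where 5.82% of all genes were, and 1 was higher in AC29, where 5.12% of all genes were. By sign alone 22 of 27 were lower in AC29, against 50.8% of all genes. The median difference was -0.45 over the listed genes and -0.0047 over all genes. AB1 and AC29 arrays did not overlap for 23 of 27 listed genes, which include all 12 called ones, against 50.1% of all genes. A level in these RNA extracts cannot tell fewer expressing cells from less RNA per cell.

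**Figure D1:**
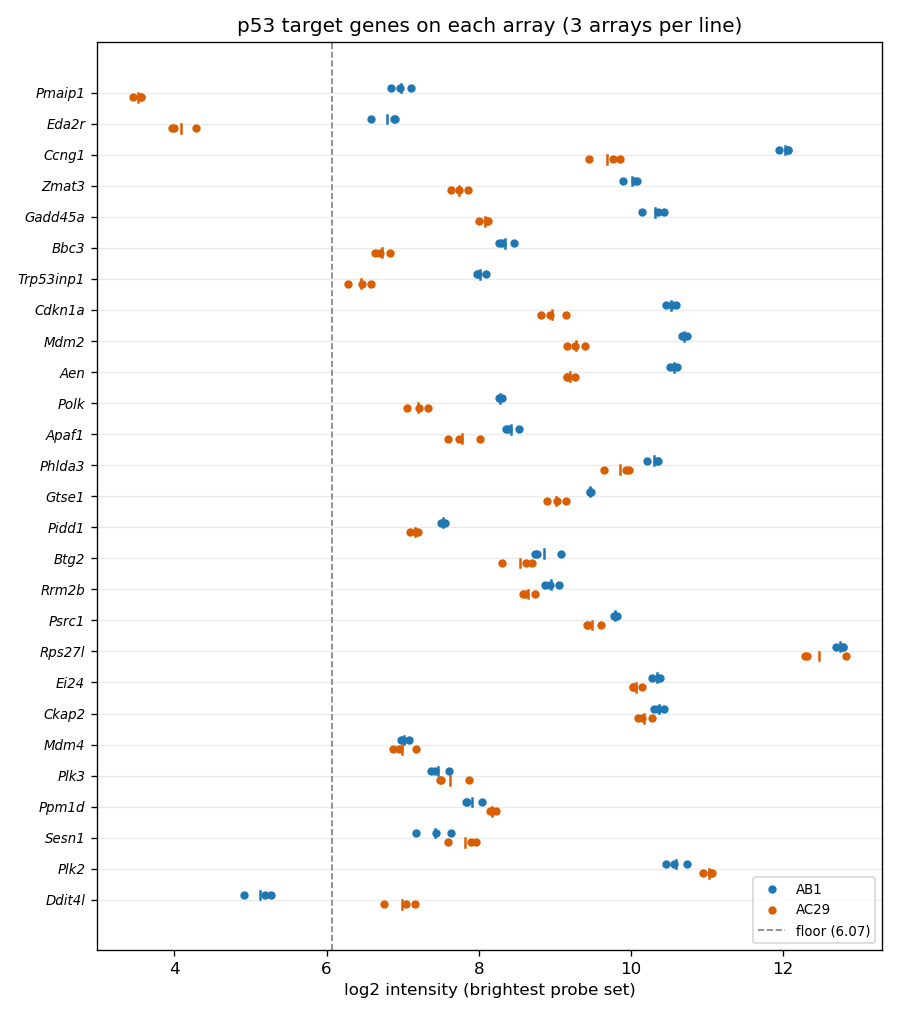
The log2 intensity of the brightest probe set of each of the 27 measured genes on each array is plotted, with 1 point per array, a tick at the mean of each line, and genes ordered by the difference between the lines. The dashed line is the background floor of 6.07, and the AB1 points lie to the right of the AC29 points from Pmaip1 down to Polk.

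The background floor used throughout was 6.07 on the log2 scale, the 95th percentile of 86 probe sets for olfactory, vomeronasal and taste receptors. In 24 of the 27 genes both lines had an array above it. Replicates were tight in both lines. The SD over 3 arrays ran from 0.01 to 0.23 in AB1 and from 0.04 to 0.30 in AC29, with medians of 0.08 and 0.12. The standard error of a difference ran from 0.0793 to 0.141.

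Of the 3 measured negative regulators of p53, 1 was called, against 10.9% of all genes. Mdm2 read 10.67, 10.74 and 10.70 on the AB1 arrays and 9.26, 9.16 and 9.40 on the AC29 arrays. Every AB1 array lay above every AC29 array, and the difference was -1.43 (SE 0.0902, limma adjusted p = 1.74e-06), or 2.70-fold with a 95% interval of 2.34 to 3.11. Its relative Mdm4 read 7.01, 7.08 and 6.98 in AB1 and 7.17, 6.95 and 6.87 in AC29. The lines overlapped, and the interval of the difference ran from -0.24 to 0.20, so a 2-fold difference lay outside it. Ppm1d read 7.85, 8.04 and 7.83 in AB1 and 8.17, 8.15 and 8.22 in AC29. These arrays did not overlap, but the difference was only 0.27 (adjusted p = 0.0369); a further probe set of Ppm1d gave 0.70. Neither Mdm4 nor Ppm1d was past the 2-fold minimum.

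Among the 9 genes of cell cycle and growth arrest, 3 were higher in AB1, where 5.82% of all genes were, and 6 were not called. Ccng1 encodes cyclin G1, which takes part in the feedback on p53. It read 11.94, 12.07 and 12.06 in AB1 and 9.85, 9.77 and 9.45 in AC29. The lines were well separated, at 5.03-fold with an interval of 4.21 to 6.02 (adjusted p = 3.24e-07). Cdkn1a encodes p21, the inhibitor of cyclin-dependent kinases through which p53 halts the cell cycle. Its values were 10.54, 10.59 and 10.46 in AB1 and 8.93, 8.82 and 9.14 in AC29. That is 2.96-fold with an interval of 2.52 to 3.48 (adjusted p = 2.22e-06). Gadd45a, a stress sensor that binds proliferating cell nuclear antigen and p21, read 10.43, 10.36 and 10.14 in AB1 and 8.11, 8.12 and 8.00 in AC29. The separation was 4.72-fold with an interval of 4.03 to 5.52 (adjusted p = 1.65e-07).

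The bases before the annotated starts of Cdkn1a and Ccng1 are shown because the windows of both contain a p53 response element, the double half-site that p53 binds as a tetramer. The sequences are RefSeq's for GRCm38.p6, 250 bases on the plus strand at chr17:29090729-29090978 and 227 bases on the minus strand at chr11:40755310-40755536. The last 23 bases before the start used for Ccng1 are left out, since they lie within the annotated span of the gene. They are written on the strand of the gene, with the matched element in capitals.
Cdkn1a: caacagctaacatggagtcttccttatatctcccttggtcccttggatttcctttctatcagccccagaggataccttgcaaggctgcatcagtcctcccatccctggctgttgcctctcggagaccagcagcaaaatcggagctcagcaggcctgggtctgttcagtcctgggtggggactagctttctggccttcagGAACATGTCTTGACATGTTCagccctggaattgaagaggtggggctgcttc
Ccng1: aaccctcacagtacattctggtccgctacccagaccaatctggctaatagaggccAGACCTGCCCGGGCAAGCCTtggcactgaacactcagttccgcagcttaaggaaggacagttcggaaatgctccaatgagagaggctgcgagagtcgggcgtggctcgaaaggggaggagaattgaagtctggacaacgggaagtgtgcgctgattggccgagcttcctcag
Each element departs from the consensus at 1 of its 20 positions. They begin 51 bases before the annotated start used for Cdkn1a and 195 bases before that used for Ccng1. Distances to any other annotated start of these genes were not analysed here.

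The other arrest genes were close between the lines. Btg2, an antiproliferative gene, read 9.08, 8.74 and 8.76 in AB1 and 8.30, 8.70 and 8.62 in AC29, with adjusted p = 0.0945 and an interval from -0.62 to -0.02. The AB1 arrays were above the AC29 arrays by a margin smaller than the range within either line. The polo-like kinase Plk2 went the other way, at 10.73, 10.57 and 10.46 in AB1 and 10.95, 11.06 and 11.05 in AC29. Its difference of 0.43 (adjusted p = 0.00526) was under the 2-fold minimum. Its relative Plk3 overlapped between the lines, with an interval from -0.12 to 0.43. Gtse1, Ckap2 and Psrc1 encode proteins that bind microtubules or the spindle, and their differences were -0.45, -0.19 and -0.31. The adjusted p-values were 0.00324, 0.132 and 0.0167, and no interval reached a 2-fold difference.

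Several genes that promote apoptosis were higher in AB1. Of 11 measured genes of apoptosis and survival, 6 were higher in AB1, where 5.82% of all genes were. None was higher in AC29, where 5.12% of all genes were, and 5 were not called, with a median difference of -1.37. Pmaip1 encodes Noxa, a protein with a BH3 domain that neutralises antiapoptotic relatives of Bcl2. It read 6.84, 7.11 and 6.97 in AB1 and 3.56, 3.45 and 3.56 in AC29, where no array exceeded the floor. It was therefore at least 1.86-fold higher in AB1 (adjusted p = 7.95e-09). Bbc3 encodes Puma, another protein of that kind, and read 8.26, 8.31 and 8.46 in AB1 against 6.64, 6.83 and 6.70 in AC29. This is a 3.07-fold difference with an interval of 2.65 to 3.56 (adjusted p = 9.80e-07).

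Eda2r, a receptor of the tumour necrosis factor family, read 6.59, 6.90 and 6.88 in AB1 and 3.97, 3.99 and 4.29 in AC29. AC29 was again below the floor, so the fold was at least 1.64 (adjusted p = 1.76e-07). Zmat3 encodes an RNA binding zinc finger protein, and read 9.90, 10.08 and 10.05 in AB1 and 7.86, 7.63 and 7.74 in AC29. The 4.82-fold difference had an interval of 4.15 to 5.60 (adjusted p = 1.09e-07). Trp53inp1, a nuclear stress protein, read 7.99, 8.09 and 7.98 in AB1 and 6.59, 6.28 and 6.47 in AC29, at 2.98-fold (2.55 to 3.49, adjusted p = 1.87e-06). Aen, an exonuclease that takes part in DNA fragmentation, read 10.56, 10.51 and 10.61 in AB1 and 9.16, 9.26 and 9.16 in AC29, at 2.58-fold (2.27 to 2.93, adjusted p = 1.16e-06). In each of these genes all AB1 arrays lay above all AC29 arrays.

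The 5 uncalled genes of this group were also on the AB1 side by sign. Apaf1, the scaffold of the apoptosome, read 8.38, 8.53 and 8.36 in AB1 and 8.01, 7.60 and 7.74 in AC29, a 1.56-fold difference (adjusted p = 0.00170) without overlap. Pidd1, a death domain protein that activates caspase 2, differed by -0.37 (adjusted p = 0.00434). Phlda3, which restrains the kinase Akt, differed by -0.45 (adjusted p = 0.00916), and Ei24, a membrane protein of the endoplasmic reticulum, by -0.27 (adjusted p = 0.0305). Rps27l, a relative of a ribosomal protein, read 12.78, 12.70 and 12.78 in AB1 and 12.31, 12.83 and 12.29 in AC29. Replicate 14 of AC29 was above all AB1 arrays there, and the adjusted p of 0.165 became 0.00251 without it, at a difference of -0.45. The brightest probe set of Rps27l is of a type marked for cross-hybridisation.

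The remaining genes act in stress, metabolism and DNA synthesis. Ddit4l encodes an inhibitor of mTOR signalling and was the only called gene of the list on the AC29 side. It read 5.19, 5.27 and 4.92 in AB1, all below the floor, and 7.16, 6.76 and 7.04 in AC29, so that it was at least 1.88-fold higher there (adjusted p = 3.87e-06). Sesn1, which encodes a sestrin that also restrains mTOR, read 7.44, 7.64 and 7.18 in AB1 and 7.90, 7.59 and 7.96 in AC29. These arrays overlapped through AC29 replicate 14. The difference was 0.40 (adjusted p = 0.0509), and 0.51 (adjusted p = 0.0140) without that array, both under the 2-fold minimum. Polk, a DNA polymerase that copies past damaged bases, read 8.28, 8.31 and 8.26 in AB1 and 7.33, 7.06 and 7.21 in AC29. It was 2.12-fold higher in AB1, with an interval of 1.83 to 2.44 (adjusted p = 1.34e-05) that spans the 2-fold minimum. Rrm2b, the ribonucleotide reductase subunit induced by p53, differed by -0.31 (adjusted p = 0.0227), with an interval from -0.51 to -0.10.

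**Figure D2:**
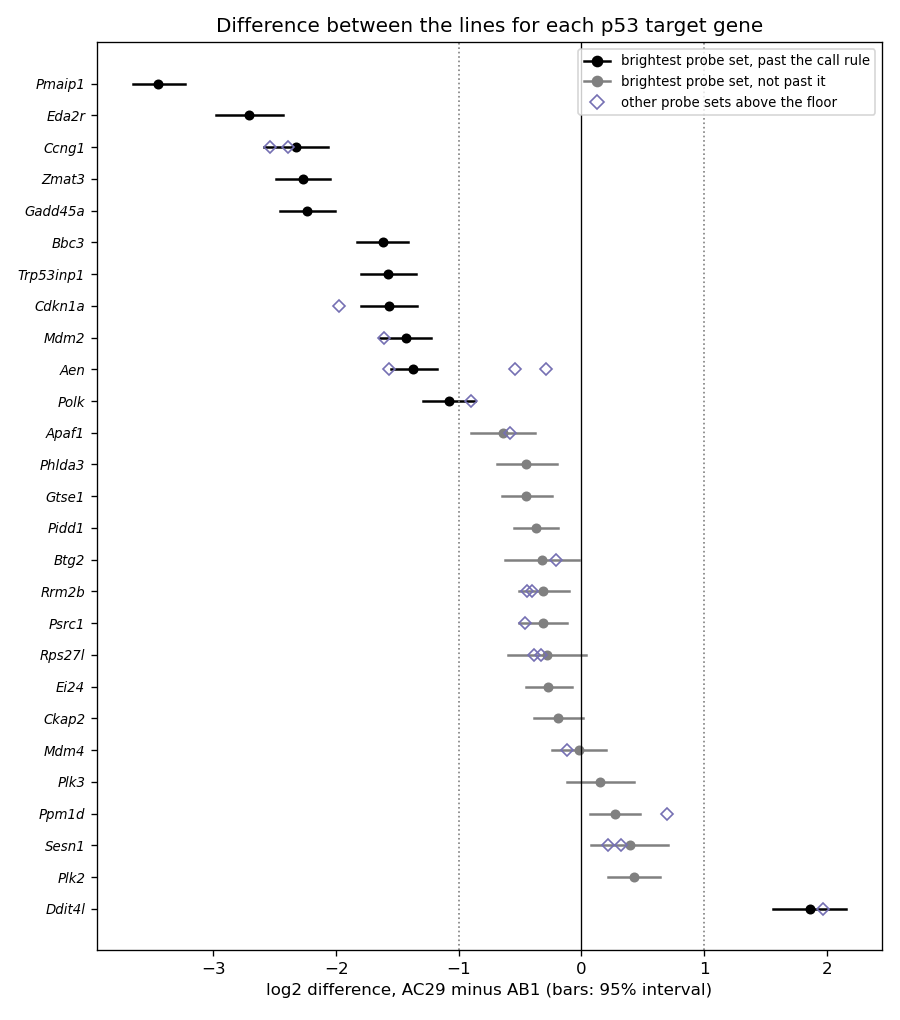
The log2 difference, AC29 minus AB1, is plotted for the brightest probe set of each gene with its 95% interval, black where the call rule was passed and grey where not, with open diamonds for other probe sets above the floor. Dotted lines mark 2-fold differences, and the 11 black points on the left are the genes called higher in AB1.

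Of the 15 genes not called, 9 had an adjusted p under 0.05, 7 of them lower and 2 higher in AC29. Without the 2-fold minimum, 18 of 27 genes were thus on the AB1 side and 3 on the AC29 side, where 20.0% and 19.1% of all genes were, or 39.1% together. Other probe sets gave the same directions. Of 29 other probe sets, 20 from 14 genes had all 3 arrays of a line above the floor, and all 20 moved with the brightest probe set of their gene. Of 9 such probe sets for called genes, 6 passed the rule themselves. The exceptions were 2 probe sets of Aen at -0.54 and -0.29 and 1 of Polk at -0.90. On the mean of all probe sets of a gene, Aen (-0.94), Trp53inp1 (-0.92) and Polk (-0.99) were under the 2-fold minimum, which left 8 genes called higher in AB1. Polk also did not pass when limma's treat tested against a 2-fold difference. The other probe set of Cdkn1a differed by -1.98, those of Ccng1 by -2.54 and -2.39, that of Mdm2 by -1.61 and that of Ddit4l by 1.97. Of the 27 genes, 11 had a single probe set, so that Pmaip1, Eda2r, Zmat3, Gadd45a and Bbc3 had no such check. Trp53inp1 had none above the floor.

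Elements like those of Cdkn1a and Ccng1 were searched in the RefSeq windows of 250 bases before to 50 bases after each annotated start. A match was a pair of adjacent p53 half-sites of 10 bases without a spacer, with the central C and G of both half-sites intact and at most 3 mismatches to the consensus, which reads the same on both strands. Of 26 listed genes with a window, 9 held a match, against 1.63% of 27025 genes, and Trp53 was among the 9. They are shown for the measured genes besides the pair above, in capitals with 5 bases on either side and on the strand of the gene, to set genes that passed the call rule beside genes that did not.
Aen, chr7:78895932-78895961, plus strand: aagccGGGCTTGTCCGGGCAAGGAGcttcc
Bbc3, chr7:16309481-16309510, plus strand: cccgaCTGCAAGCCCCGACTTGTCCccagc
Rps27l, chr9:66946291-66946320, plus strand: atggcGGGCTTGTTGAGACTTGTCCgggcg
Gtse1, chr15:85859940-85859969, plus strand: accggGAGCAAGTTGGGGCTTGCCTctgac
Ckap2, chr8:22185998-22186027, minus strand: tctgaAGACATGTCCTGACTTGTCAagcct
Sesn1, chr10:41887261-41887290, plus strand: ccttcAAGCTTGTTTTTGCTGGCCTggtcc
Mismatches numbered 1 in Rps27l and Gtse1, 2 in Ckap2 and 3 in Aen, Bbc3 and Sesn1. Of 8 measured genes with an element, 4 were called higher in AB1 (Ccng1, Cdkn1a, Aen and Bbc3), where 5.82% of all genes were. Among 15 measured genes with a window but no match, 4 were (Mdm2, Gadd45a, Eda2r and Polk). Pmaip1, Zmat3 and Trp53inp1, also called higher in AB1, had no window and are in neither count. Of the genes whose element had 1 mismatch, Ccng1 and Cdkn1a were called and Gtse1 and Rps27l were not. Of those with 3, Aen and Bbc3 were called and Sesn1 was not, nor was Ckap2 with 2. The part of the mismatches in the calls was not tested. A single exact half-site was found in 15 of 26 listed genes and in 9.55% of all genes. The list was taken for control by p53. The shares of listed genes with an element or a half-site are therefore not independent of that choice. A match is a description of these letters and not evidence of binding.

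Of 29 measured regulators of p53, 1 was higher in AB1, where 5.82% of all genes were, and 2 were higher in AC29, where 5.12% were, with a median of 0.09. By this rule the called share was near that of all genes. Without the 2-fold minimum 4 were on the AB1 side and 11 on the AC29 side, where 20.0% and 19.1% of all genes were. Ppp1r13b and Trp53bp2 encode the ASPP1 and ASPP2 proteins, which direct p53 toward apoptosis genes. The AC29 level of Ppp1r13b was 8.75 ± 0.28 (SD, n = 3) and its AB1 level 5.90 ± 0.19, close to background (7.20-fold, adjusted p = 5.50e-07), by a single probe set that is marked for cross-hybridisation. Trp53bp2 read 9.52 ± 0.21 and 7.82 ± 0.07 (3.26-fold, adjusted p = 2.64e-06). Sirt1, a deacetylase of p53, was 2.17-fold higher in AB1 (adjusted p = 9.68e-05), but under the 2-fold minimum without AC29 replicate 15 at -0.97, and it did not pass treat. The brightest genes not called were Rpl11, a ribosomal protein that binds Mdm2, at -0.05, and the nucleolar protein gene Npm1 at 0.32.

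Calls in a second list, of genes taken as p53 targets, were split. How well p53 control is established for each of them was not examined here. AB1 was higher for 7 of its 41 measured genes, against 5.82% of all genes, and AC29 for 9, against 5.12%. The other 25 were not called, and the median was -0.05. Ercc1, a subunit of a repair nuclease, was 17.6-fold higher in AB1 (12.59 ± 0.08 against 8.46 ± 0.20, SD, n = 3, adjusted p = 7.55e-09). On the mean of its probe sets its log2 difference was -2.25, against -4.14 for the brightest. The matrix protein gene Thbs1 was 6.67-fold, the reductase Dcxr 4.10-fold and the ubiquitin ligase Rnf169 at least 3.01-fold higher there. On the AC29 side Perp, which encodes a desmosome protein, was at least 5.12-fold higher (8.43 ± 0.29 against 3.75 ± 0.08, adjusted p = 1.19e-08). The lipid transfer protein Pltp was 8.30-fold, the autophagy gene Dram1 5.07-fold (from 5.97, near the floor) and Igfbp3, which binds insulin-like growth factors, at least 1.89-fold higher in AC29. Without probe sets marked for cross-hybridisation the log2 difference of Pltp was 3.67 in place of 3.05, and that of Igfbp3 3.35 in place of 2.40. Gpx1 and Klf4, the brightest genes not called, differed by 0.18 and -0.22.

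Of 31 measured cell cycle genes that act or are controlled downstream of p21, 1 was called, against 10.9% of all genes. This was the retinoblastoma gene Rb1, at 2.07-fold higher in AB1 (adjusted p = 6.36e-05). Without the 2-fold minimum 13 of the 31 passed, where 39.1% of all genes did. Its difference was -0.99 with AB1 replicate 5 left out and -0.97 with AC29 replicate 14 left out, short of 2-fold both times, and -0.68 on the mean of its probe sets. It did not pass treat. The replication clamp gene Pcna was at 13.46 ± 0.02 (SD, n = 3) in AB1, with an AC29 level of 13.40 ± 0.01. Cdc20, an activator of the anaphase promoting complex, read 12.29 ± 0.05 and 12.83 ± 0.11 (adjusted p = 0.00102), under the 2-fold minimum.

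Among 21 measured apoptosis genes outside the p53 list, 3 were called on the AB1 side, against 5.82% of all genes, and 2 on the AC29 side, against 5.12%. The antiapoptotic genes Bcl2 (2.32-fold) and Bcl2l2 (2.21-fold) and the proapoptotic Bcl2l11 (2.07-fold), which encodes Bim, were higher in AB1. Bak1, which permeabilises mitochondria (2.23-fold), and Diablo, which blocks inhibitors of apoptosis (2.20-fold), were higher in AC29. The adjusted p-values of these genes ran up to 0.000107. With all probe sets of each gene averaged, 1 gene of this list was called in place of 5, and none of the 5 genes passed limma's treat against a 2-fold difference. Cycs and Mcl1, the brightest genes not called, differed by -0.08 and 0.13.

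**Figure D3:**
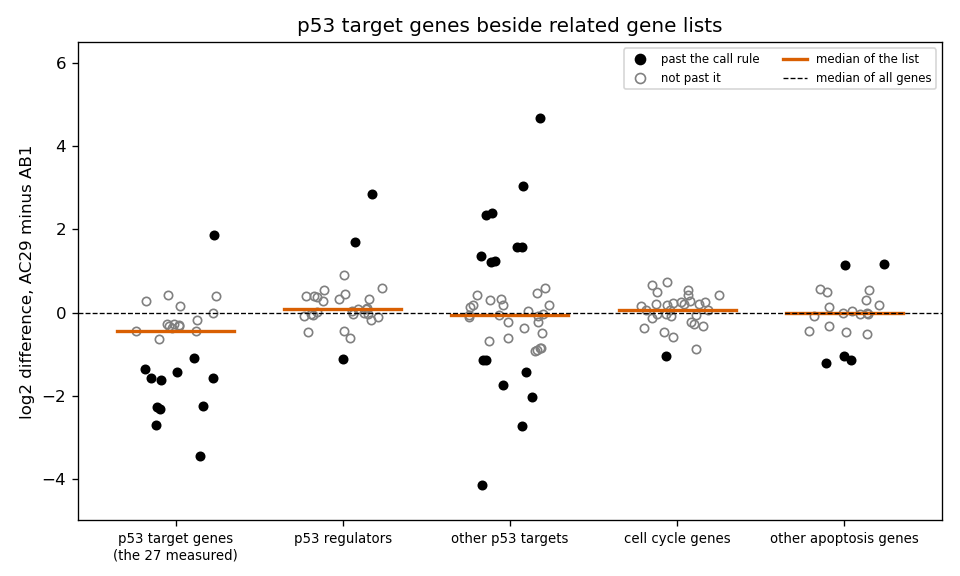
Each point is the log2 difference, AC29 minus AB1, of a gene in the p53 list and in the related lists, filled where the call rule was passed. The orange line is the median of the list, -0.45 for the 27 p53 genes and between -0.05 and 0.09 for the other lists, and the dashed line is the median of all genes.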

How the data were processed

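Biotinylated cRNA made from 5 ug of total RNA per flask was hybridised to 1 array each, per the labels' protocols. The deposited values are log2 intensities for 45101 probe sets. Per the submitters' processing notes, GCOS, Partek 6.4 and RMA were used, without stated roles. RMA normalizes arrays by quantiles and can understate differences of very dim or bright genes. The log2 scale was taken from the value range. Probe sets were named from the platform annotation, without 64 controls, and a gene was represented by its probe set with the highest mean over 6 arrays.

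All probe sets were fitted by lmFit and eBayes of limma 3.58.1 (R 4.3.3) with line as the only term, 2-sided, and p-values were adjusted by Benjamini and Hochberg over 18193 genes. A fold against a line with no array above the floor is a lower bound, taken from the other line's mean minus the floor. Tested on simulated data for AC29 minus AB1 with 18193 genes, the fit and call rule recovered 48% of 50 genes changed by 1 on the log2 scale, the rule's own minimum, and 98% of 50 changed by 1.5. The listed genes, the related gene lists and the tests were chosen with earlier results of these data known. Named were all listed genes and, in each related list, the 4 widest calls on either side and the 2 brightest genes not called. The number of arrays limits the precision, and scan batches were not analysed here.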

Additional observations from a re-analysis of the deposited data

How the results depend on the processing

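The counts of p53 genes called higher in AB1 (11) and in AC29 (1) stayed within 1.5 times of these values under quantile normalization, median centring, the filter on dim genes, the mean of probe sets, the omission of probe sets marked for cross-hybridisation, trended and robust moderation, treat and an adjusted p under 0.01. With no minimum difference they were 18 and 3. In the related lists that setting gave 4 of 29 regulators higher in AB1 and 11 in AC29. Of 41 other targets it gave 15 and 14, where 20.0% and 19.1% of all genes passed. In either direction 13 of 31 cell cycle genes and 13 of 21 apoptosis genes passed, against 39.1% of all genes. Treat gave 0 regulators higher in AB1, 0 cell cycle genes and 0 apoptosis genes, the mean of probe sets gave 1 apoptosis gene, and without the marked probe sets 1 regulator was higher in AC29 and 2 cell cycle genes were called. Leaving out each array in turn gave 11 p53 genes higher in AB1 and 1 in AC29 each time, a median difference over them of -0.49 to -0.38, 0 to 1 regulators higher in AB1 and 0 to 2 cell cycle genes. The difference of Mdm4, -0.02 in the report, was -0.15 on the mean of probe sets and -0.12 without the marked ones. It ran from -0.11 to 0.04 over the omissions of single arrays, with its sign turned without AB1 replicate 5 (0.01), AC29 replicate 14 (0.0) and AC29 replicate 15 (0.04). The causes of these shifts were not tested. No paired analysis was possible because the lines share no replicate number.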
